A study of Mus musculus with 2 samples.

Results

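Islet endothelial cells line the capillaries of the pancreatic islet, and 1014 of them were found among the 15081 barcodes of a single-cell RNA-Seq experiment on WT and GKO islets. GKO mice are homozygous for a deletion of the ghrelin gene, and ghrelin is a hormone made mainly by the stomach and by scattered islet cells. Both genotypes were male C57BL/6N littermates, 8 weeks old and fed standard chow, and neither group received any other allele or agent. Islets of 4 mice were pooled per genotype, dispersed, sorted for viable single cells and loaded as 1 droplet library, which counted transcript 3′ ends by unique molecular identifier (UMI). The WT library held 7792 barcodes and 158067110 UMIs, and the GKO library held 7289 barcodes and 103511757 UMIs. The deletion is not restricted to a tissue, and a pool does not show how its 4 mice differed.

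Cells were chosen by their transcripts. A barcode was kept when 500 or more genes were detected and mitochondrial transcripts made no more than 10% of its UMIs, which left 7100 barcodes in WT and 6346 in GKO. It was taken as endothelial when Plvap, Esm1, Emcn, Flt1, Kdr, Egfl7 and Pecam1 together made at least 0.3% of its UMIs, the islet hormones under 10%, the fibroblast genes Dcn, Lum and Clec3b under 0.3% and the macrophage C1q genes under 0.3%. These limits gave 577 WT cells and 437 GKO cells. The libraries shared 18 barcode sequences, and none of them was an endothelial cell.

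Islet capillaries are dense and fenestrated, so that hormones pass quickly into the blood, and their endothelium lays down the basement membrane that the endocrine cells contact. VEGF-A from β cells maintains this endothelium, and Notch and BMP signals set the balance between sprouting and resting cells. Endothelial cells also present antigen on MHC class I, and interferons raise the genes of that pathway.

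With 1 library per genotype no difference could be tested, and cells of a pool are not replicates. UMIs were summed over the endothelial cells of each library and scaled to counts per 1000000 UMIs (CPM), and every log2 ratio below is of GKO to WT. Exact 95% intervals (Poisson for sums, Clopper-Pearson for cell shares) reflect counting error alone and leave out the spread between mice, pools and dissociations.

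As a check of the labels, Ghrl (ENSMUSG00000064177) had 43634 UMIs in the WT library and 280 in the GKO library, of which 276 came from a single barcode. In the endothelial cells the gene had 21 UMIs in WT, spread over 21 cells, and none in GKO. By the limit of 3 counts, 0 of 437 cells allows a share of cells with a UMI of up to 0.686%, and the exact interval reaches 0.841%. Ghsr, which encodes the ghrelin receptor, had 3 UMIs in WT endothelial cells and none in GKO, too few to compare. Ins2, a hormone gene of β cells, had UMIs in 577 of 577 WT and 436 of 437 GKO endothelial cells.

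Endothelial cells made 8.13% of the kept WT barcodes (interval 7.50 to 8.79) and 6.89% of the kept GKO barcodes (6.28 to 7.54). Among kept barcodes with a low hormone share they were 38.4% in WT and 19.3% in GKO, and macrophage and stellate or fibroblast barcodes were more numerous in the GKO library (449 against 194, and 652 against 261). The endothelial sums reached 4927131 UMIs in WT and 3554918 in GKO. A median cell held 6998 UMIs and 2697 genes in WT and 7330 UMIs and 2788 genes in GKO, so depth per cell was close. Mitochondrial transcripts were a median of 3.10% and 3.38% of the UMIs. Values on either side of the limit were sparse. The lowest endothelial share inside it was 0.349% in WT and 0.474% in GKO, the highest outside it was 0.171% and 0.299%, and the median cell stood at 2.44% and 2.42%.

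The genes that chose the cells are given as a description. Plvap, which forms the diaphragms of fenestrae, was the most abundant at 5826 CPM in WT and 6137 CPM in GKO (log2 ratio 0.07). The VEGF receptors Flt1 (4058 and 4024 CPM) and Kdr (2671 and 2779.5 CPM) had log2 ratios of −0.01 and 0.06. Esm1, a secreted proteoglycan of VEGF-stimulated endothelium, was at 3670.3 and 3663 CPM and was found in 509 of 577 WT cells and 368 of 437 GKO cells. Emcn, a sialomucin of capillaries and veins, was at 3734 and 4070.4 CPM. Plvap UMIs were in 575 WT and 435 GKO endothelial cells, against 197 of 2085 WT β cells and 47 of 782 GKO β cells, which should lack the transcript. The identity of the cells is read from 16 endothelial genes that the rule did not use. All 16 passed a limit of 100 UMIs in both sums together, and their median log2 ratio was 0.05. Cdh5, the cadherin of endothelial junctions, was at 629 CPM in WT and 650.1 CPM in GKO and was detected in 557 and 419 cells. The angiopoietin receptor gene Tek was at 213 and 236 CPM. Clec14a, a receptor of angiogenic endothelium, had the largest ratio of these genes (495 to 654 CPM, log2 0.40), and the tight junction gene Cldn5, low in islet capillaries, the smallest (33.7 to 23.1 CPM, −0.55). Of the lymphatic genes, Lyve1 had 5 and 0 UMIs, and Pdpn and Mmrn1 had none in the endothelial cells of either library. Prox1, a lymphatic transcription factor gene that endocrine cells also express, had UMIs in 35 WT (6.07%) and 17 GKO (3.89%) endothelial cells. In cells thinned to 5000 UMIs each, its shares were 3.49% in WT and 2.20% in GKO, against 10.8% and 11.4% in β cells. The source of these Prox1 UMIs was not tested. Flt4, a VEGF-C receptor gene also expressed in fenestrated capillaries, was at 147 and 149 CPM.

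Of 7822 genes with at least 100 UMIs, 165 (2.11%) were at least 1.5-fold higher in GKO endothelial cells and 177 (2.26%) at least 1.5-fold lower. The median log2 ratio of all 7822 genes was 0.04, with quartiles of −0.11 and 0.18. Gene lists are read against these shares. MHC class I presentation and the interferon response had list medians of 0.50 and 0.56, above the upper quartile of all genes. The glucocorticoid-responsive, Notch and BMP lists had medians of −0.20, −0.12 and −0.11, near the lower quartile, with 3, 2 and 3 single genes at least 1.5-fold lower. The cell cycle list had 4 of 8 lower, and it stood highest in a small group of cells led by mural genes, described below.

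**Figure D1:**
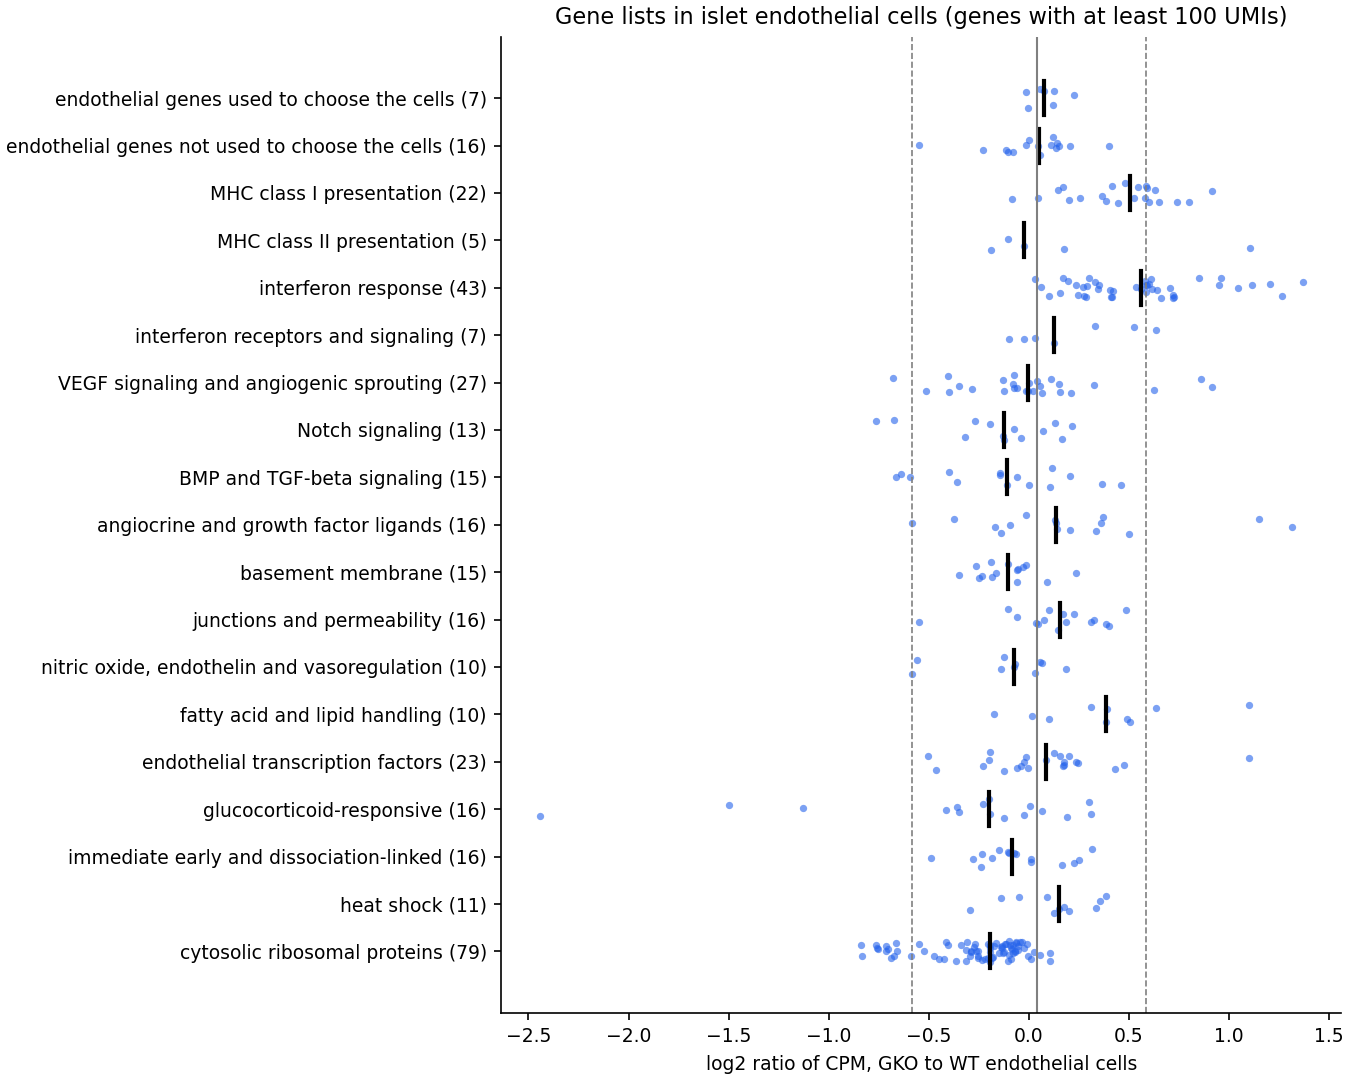
Log2 ratio of GKO to WT CPM in islet endothelial cells, by gene list, for genes with at least 100 UMIs (number in brackets). Each point is a gene and each black bar a list median, the solid grey line marks the median of all genes (0.04) and the dashed lines mark 1.5-fold. All 43 interferon response genes lie above 0, and the glucocorticoid-responsive list has 3 genes far to the left.

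MHC class I presentation covers the heavy chains, the light chain β2-microglobulin, the immunoproteasome that cuts peptides and the transporter that carries them into the endoplasmic reticulum. Of the 24 listed genes 22 passed the limit. Of these, 8 were at least 1.5-fold higher in GKO and none was lower, beside 2.11% and 2.26% of all genes, and the median log2 ratio of the 22 was 0.50 against 0.04 over all genes. Psmb8, Psmb9 and H2-Q4 lay close to the 1.5-fold limit, and 5 genes passed it with TMM scaling. Summed over the list, the WT level was 9218 CPM and the GKO level 12259 CPM (log2 0.41, interval 0.39 to 0.43).

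Among the heavy chains, H2-D1 was at 1926 CPM in WT and 2619.8 CPM in GKO (log2 0.44), and H2-K1 was at 1629 and 2274 CPM (0.48). B2m, the light chain, was at 1743 and 2249 CPM (0.37) and was detected in every cell of both libraries. The nonclassical chains stood further apart. H2-Q7 was at 154 and 269 CPM (0.80), H2-T23, which encodes the Qa-1 molecule, at 352 and 545 CPM (0.63), and H2-T22 at 100.1 and 157 CPM (0.65, and 0.57 in thinned cells, short of 1.5-fold). The H2 genes are near-identical copies of each other, so the counts of H2-Q4, H2-Q6 and H2-Q7 are uncertain, singly and as a sum.

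The peptide transporter Tap1 (chr17:34187553-34197225, mm10) had the largest ratio of the 22 genes. It was at 53.0 CPM in WT and 99.9 CPM in GKO (log2 0.91, interval 0.68 to 1.15), with UMIs in 191 of 577 and 208 of 437 cells. Its partner Tap2 was at 125 and 183 CPM (0.55). The immunoproteasome subunits Psmb9 (162 and 244 CPM), Psmb8 (343 and 514 CPM) and Psmb10 (225 and 293 CPM) had log2 ratios of 0.59, 0.58 and 0.39. By contrast, general chaperones of the endoplasmic reticulum that also serve class I were close between genotypes: Calr at 497 and 549 CPM (0.14), Canx at 225 and 232 CPM (0.04), and Pdia3 at 396 and 374 CPM (−0.09).

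The interferon response list held 54 genes, of which 43 passed the limit of 100 UMIs. In GKO, 19 of the 43 were at least 1.5-fold higher and none was lower, beside 2.11% and 2.26% of all genes. All 43 had a log2 ratio above 0, with a median of 0.56, and for 34 the counting interval lay above 0. Their summed level was 9461 CPM for WT and 12204.5 CPM for GKO (log2 0.37, interval 0.35 to 0.39). The 3 most abundant members, Ly6a, Ifitm3 and Ly6e, weigh most in the sum and had log2 ratios of 0.35, 0.24 and 0.15.

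GTPases that interferons induce against intracellular pathogens led the list. Igtp (ENSMUSG00000078853, chr11:58199556-58207591) was at 31.9 CPM in WT and 82.4 CPM in GKO (log2 1.37, interval 1.09 to 1.66), and it was detected in 119 of 577 WT cells and 153 of 437 GKO cells. Cells were then thinned to 5000 UMIs each, which left out 147 WT and 119 GKO cells of lower depth from every thinned endothelial value. Igtp was found in 44 of 430 thinned WT cells (10.2%) and 88 of 318 thinned GKO cells (27.7%). In β cells it was found in 28 of 2080 and 20 of 781 thinned cells. Iigp1 was at 122 and 282 CPM (1.20). The guanylate-binding proteins followed, with Gbp3 at 32.9 and 79.0 CPM (1.27), Gbp4 at 56.6 and 123 CPM (1.11), Gbp2 at 55.8 and 115 CPM (1.05) and Gbp5 at 27.4 and 52.9 CPM (0.95). Gbp7, the most abundant of the family, was at 169 and 268 CPM (0.66). These GTPase genes are close copies within their families, so their counts are also less certain.

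Among antiviral genes of the list, Rsad2, which encodes viperin, was at 244 CPM in WT and 440 CPM in GKO (log2 0.85, interval 0.74 to 0.96) and was detected in 379 and 327 cells. Ifit1 (34.3 and 56.5 CPM), Ifit2 (30.0 and 49.5 CPM) and Ifit3 (28.6 and 47.3 CPM) each had a log2 ratio of 0.72. Isg15, a ubiquitin-like modifier, was at 146 and 220 CPM (0.59, and 0.35 without cells with a UMI of another lineage). Ddx58, a sensor of viral RNA, was close between genotypes (0.06). Cd274, which encodes the T cell inhibitor PD-L1, was at 34.5 and 53.7 CPM (0.64). The abundant members differed less: the surface protein gene Ly6a was at 2544 and 3248 CPM (0.35), and the antiviral membrane protein gene Ifitm3 at 1837 and 2162 CPM (0.24).

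Among regulators of the response, the transcription factor Irf7 was at 77.1 CPM in WT and 116 CPM in GKO (log2 0.58). Irf1, which interferon-γ induces early, was at 215 and 220 CPM (0.03), and Irf9 at 70.2 and 75.4 CPM (0.10). Of 7 receptor and signaling genes 1 was at least 1.5-fold higher, beside 2.11% of all genes, and the median of the 7 was 0.13. The receptor chain gene Ifngr2 for interferon-γ was at 50.3 and 78.2 CPM (0.64), and its partner Ifngr1 at 201 and 253 CPM (0.33). Il10rb for interferon-λ was at 127 and 183 CPM (0.53), and Ifnar1 for type I interferon at 33.7 and 33.2 CPM (−0.02). The kinase genes Jak1 (202 and 206 CPM) and Jak2 (25.6 and 23.9 CPM) had log2 ratios of 0.03 and −0.10. The chemokine gene Cxcl9 lay below the limit with 3 and 50 UMIs, and 39 of the 50 came from 1 cell. Cxcl10 had 54 and 30 UMIs, of which 32 and 12 came from 1 cell each.

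**Figure D2:**
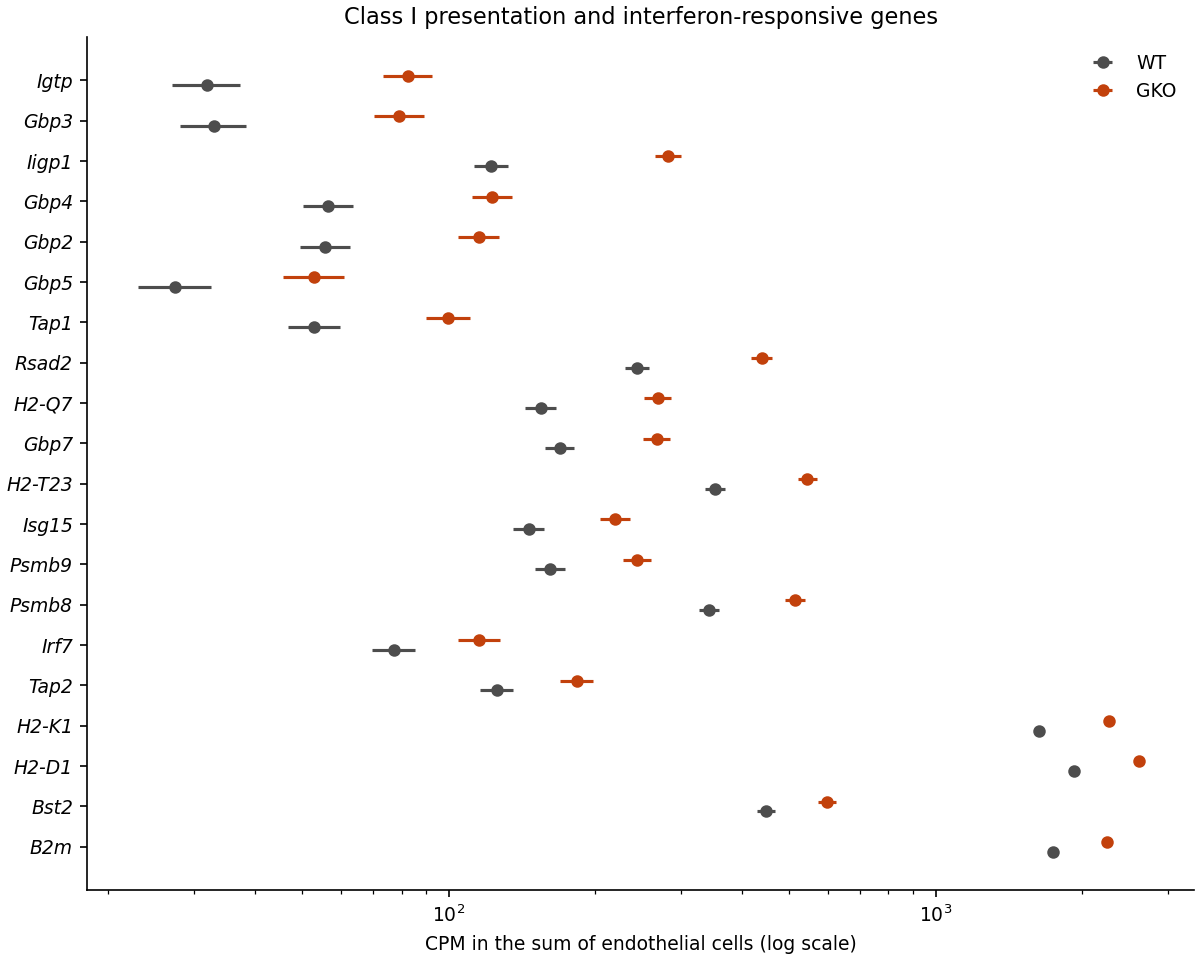
CPM of 20 class I presentation and interferon-responsive genes in the summed endothelial cells of WT (grey) and GKO (orange), on a log axis, ordered by ratio. Bars are exact 95% Poisson intervals for counting error, and the GKO value is the higher one for each gene shown, from B2m (log2 0.37) to Igtp (1.37). The genes are a selection, and members close between genotypes, such as Pdia3, Canx and Ddx58, are not shown.

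Interferons act on promoters through 2 short elements, the ISRE and the GAS, which bind the transcription factors that interferon receptors activate. RefSeq promoters of GRCm38.p6, which is mm10, were searched on both strands from 250 bases before to 50 bases after each start, and promoters were found for 33 of the 43 interferon response genes. The ISRE letters (GAAA, any 2 bases, GAAA) were in 22 of 39 promoters of these genes (56.4%), against 1131 of 32851 promoters in all (3.44%). The GAS letters TTCNNNGAA were in 12 of the 39 (30.8%), against 8.3% of all. For the class I genes, of which 20 of 22 had a promoter, 5 of 22 promoters held the ISRE letters (22.7%). The GAS letters were in 2 of these 22 promoters (9.09%), near the share of all promoters. Over all genes at least 1.5-fold higher in GKO the ISRE share was 18 of 153 promoters (11.8%), and over those at least 1.5-fold lower 7 of 171 (4.09%). Since the interferon list was made of known interferon targets, its share describes the list, and a match is not a measured site. The higher genes include the 27 class I and interferon response genes past 1.5-fold, so their share is not separate from that of the lists. The share without those 27 was not calculated. Promoters of 4 genes are shown, each as the 150 bases before the RefSeq start on the gene's own strand, with the matches in capitals: Igtp (chr11:58199406-58199555, plus strand), the largest ratio, with a GAS match followed by an ISRE match; Gbp3 (chr3:142559894-142560043, plus strand), whose 2 ISRE matches overlap on the opposite strand; Rsad2 (chr12:26456453-26456602, minus strand), with an ISRE match on the opposite strand far from the start; and B2m (chr2:122147537-122147686, plus strand), the abundant light chain, with an ISRE match. The same windows of Tap1, Psmb9 and H2-K1 held no match of either element and are not printed.
Igtp: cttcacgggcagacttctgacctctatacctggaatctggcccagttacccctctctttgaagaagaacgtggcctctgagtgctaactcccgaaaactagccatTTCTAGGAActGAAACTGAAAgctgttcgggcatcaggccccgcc
Gbp3: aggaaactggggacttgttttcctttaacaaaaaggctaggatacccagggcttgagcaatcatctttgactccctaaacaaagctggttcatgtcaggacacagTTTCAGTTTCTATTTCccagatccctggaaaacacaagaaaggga
Rsad2: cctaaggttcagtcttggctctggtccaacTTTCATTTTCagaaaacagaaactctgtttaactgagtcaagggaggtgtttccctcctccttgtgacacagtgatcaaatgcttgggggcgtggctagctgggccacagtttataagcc
B2m: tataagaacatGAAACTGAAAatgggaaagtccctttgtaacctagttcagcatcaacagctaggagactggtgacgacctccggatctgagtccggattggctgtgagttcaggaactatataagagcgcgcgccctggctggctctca

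The difference was spread over many cells. In cells thinned to 5000 UMIs, class I presentation and interferon response genes together took between 40 and 290 UMIs in WT, with a median of 90, and between 44 and 329 in GKO, with a median of 116. The distributions overlapped over most of their range. In GKO, 248 of 318 cells (78.0%, interval 73.0 to 82.4) lay above the WT median, against 212 of 430 WT cells (49.3%). Taken apart, the median was 44 UMIs in WT and 59 in GKO for class I presentation, and 45 and 58 for the interferon response.

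**Figure D3:**
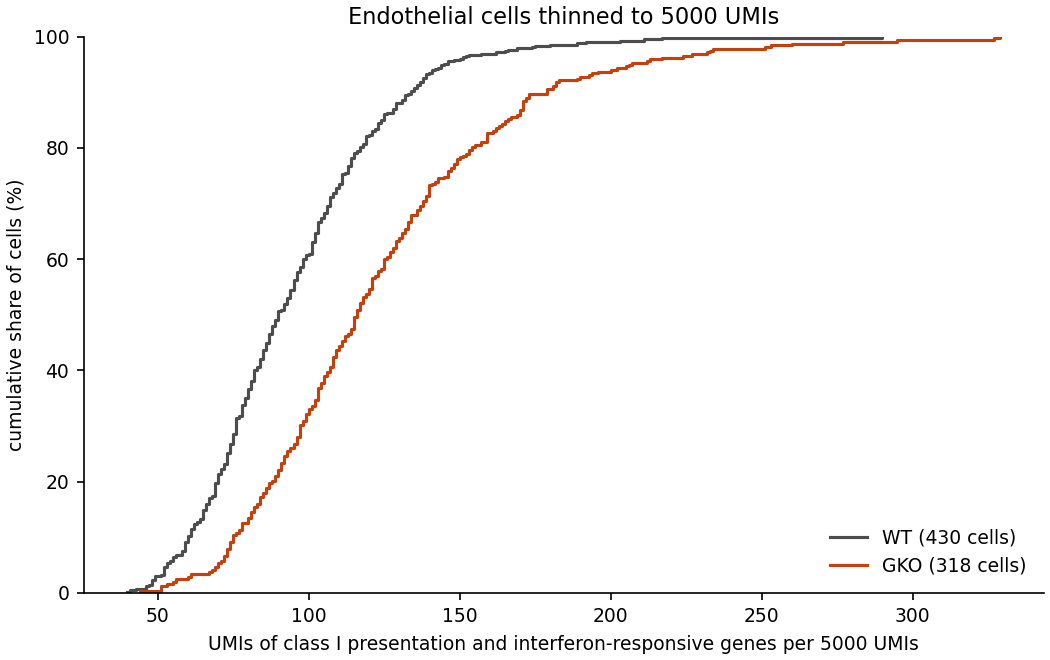
Cumulative share of endothelial cells (%) by the number of class I presentation and interferon-responsive UMIs, after thinning each cell to 5000 UMIs, for 430 WT (grey) and 318 GKO (orange) cells. The GKO curve lies to the right of the WT curve over most of its length, with medians of 116 and 90 UMIs.

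MHC class II presentation behaved differently, because a handful of cells held most of its transcripts. Cd74, the invariant chain of class II, was at 311 CPM in WT and 305 CPM in GKO (log2 −0.02), and the whole list at 627 and 631 CPM (0.01). Of 10 listed genes 5 passed the limit, with a median of −0.02. However, 1375 of the 1531 WT Cd74 UMIs (89.8%) came from 4 cells. One of them held 880 Cd74 UMIs with 43 of the B cell gene Cd79a, and 2 held 1484 and 1566 UMIs of Jchain, a gene of antibody-secreting cells, beside 23 and 70 UMIs of Plvap. In GKO, 866 of 1086 Cd74 UMIs (79.7%) came from 11 cells, of which the top 2, with 365 and 98, also held 5 and 4 UMIs of the myeloid gene Tyrobp, while those ranked 3 to 6, with 44 to 76 Cd74 UMIs each, had no UMI of Ptprc, Tyrobp, Cd79a or Jchain.

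When the small groups of cells led by mural and by immune genes were left out, 542 WT and 417 GKO cells remained. This step was chosen after the data were seen. In these cells the class II list was at 81.7 CPM in WT and 387 CPM in GKO (log2 2.24, interval 2.07 to 2.42). Cd74 was at 33.1 and 182 CPM, H2-Ab1 at 18.4 and 77.4 CPM, and H2-Aa at 10.9 and 53.0 CPM. The GKO transcripts were again concentrated: 14 of 417 cells had at least 10 Cd74 UMIs, against 1 of 542 in WT. Of these 14 cells 7 were among the 12 vein-like GKO cells described below, where class II stood at 5690 CPM, against 353 CPM in 18 WT cells of that kind; class II genes were not kept out of that grouping. Removing the cells with a UMI of Ptprc, Tyrobp, Laptm5, Cd79a, Rgs5 or Pdgfrb left 512 and 384 cells with 82.1 and 353 CPM (2.11). Single Cd74 UMIs were common in cells that should lack the gene. In thinned cells a Cd74 UMI was found in 46 of 430 WT (10.7%) and 56 of 318 GKO (17.6%) endothelial cells, and in 115 of 2080 WT (5.53%) and 59 of 781 GKO (7.55%) β cells. The class II sum was also higher in GKO in β cells (159 and 272 CPM, log2 0.78), in α cells (0.73) and in δ cells (0.97). In stellate or fibroblast cells it was lower (1192 and 472 CPM, −1.34), and in macrophages it was close (−0.03). The GKO library also held more macrophage barcodes. The part of free RNA in the endothelial class II difference was not tested.

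Glucocorticoid-responsive genes are induced when the glucocorticoid receptor binds its hormone. Of 16 that passed the limit, none was higher by 1.5-fold and 3 were lower, beside 2.11% and 2.26% of all genes. The list median was −0.20. The 3 were far apart between genotypes. Zbtb16 (ENSMUSG00000066687, chr9:48654297-48836222), which encodes the zinc finger repressor PLZF, was at 127 CPM in WT and 23.3 CPM in GKO (log2 −2.44, interval −2.79 to −2.11), with UMIs in 285 of 577 WT cells and 53 of 437 GKO cells. Fkbp5, a co-chaperone of the receptor, was at 231 and 105 CPM (−1.13, interval −1.30 to −0.96), with UMIs in 446 and 201 cells. Mt1, a metallothionein, was at 37.3 and 13.2 CPM (−1.50), and ranged from −1.93 to −0.87 under the alternatives that were not added later. Angptl4, a lipase inhibitor, had 56 UMIs in WT and 7 in GKO, below the limit. Other targets were close: Tsc22d3, which encodes the anti-inflammatory protein GILZ, at 772 and 673 CPM (−0.20), the kinase gene Sgk1 at 973 and 850 CPM (−0.20), Per1 at 60.1 and 59.1 CPM (−0.02) and Dusp1 at 1126 and 1131 CPM (0.01). The receptor gene Nr3c1 was at 202 and 248 CPM (0.30). The core letters of the glucocorticoid response element (GNACA, any 3 bases, TGTNC) were in 2 of 24 promoters of the list and in 0.475% of all promoters. The Fkbp5 promoter searched held no match, and no promoter was found for Zbtb16. Nr1d1, a repressor of the circadian clock that glucocorticoids also act on, was outside the list and stood at 55.8 and 24.2 CPM (−1.21).

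Zbtb16 and Fkbp5 were also lower outside the endothelium. Zbtb16 had log2 ratios of −1.74 in stellate or fibroblast cells, −1.58 in macrophages, −2.03 in β cells, −2.89 in α cells and −2.96 in δ cells, at levels of 91.5 CPM or less in WT and with only 57 and 5 UMIs in β cells and 48 and 4 UMIs in δ cells. Fkbp5 had ratios of −1.28 in macrophages, −1.06 in β cells, −0.79 in α cells and −0.82 in δ cells, while stellate or fibroblast cells were at 44.4 and 42.5 CPM (−0.06). A difference that runs through several cell types of a library cannot be told apart from one between the 2 pools.

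Notch receptors on an endothelial cell are cleaved when they bind ligands of a neighbour, and the freed part turns on the repressors Hes and Hey. Of 13 genes that passed the limit, 2 were lower by 1.5-fold, both of them targets, beside 2.26% of all genes. Hes1 (chr16:30064384-30067796) was at 929 CPM in WT and 583 CPM in GKO (log2 −0.67, interval −0.75 to −0.60), and its UMIs were in 499 of 577 and 318 of 437 cells. Hey1 was at 99.9 and 58.8 CPM (−0.76). Of the other 11 genes 7 were below 0 and 4 above, none past 1.5-fold and none with a counting interval below 0. Within the largest group of cells in the clustering described below (116 WT and 150 GKO cells), no Notch gene with at least 100 UMIs passed 1.5-fold. Hey1 was under that limit there, with 15 and 10 UMIs (log2 −0.87, interval −2.19 to 0.38). Hes1 was low in both genotypes in this group, at 381 and 347 CPM (−0.14). Its counting interval lay below 0 in 3 of the 4 large groups. The target Hey2 was at 35.1 and 30.7 CPM (−0.20), the ligand Dll4 was at 189 and 172 CPM (−0.13), the receptors Notch1 and Notch4 at 261 and 253 CPM (−0.04) and at 114 and 128 CPM (0.17), and Nrarp, also a target, at 88.3 and 102 CPM (0.21).

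BMP and TGF-β signaling act through SMAD proteins on the Id genes. Of 15 genes 3 were lower by 1.5-fold, beside 2.26% of all genes, and all 3 are targets of the pathway. Id1 was at 823 CPM in WT and 520 CPM in GKO (log2 −0.66), Id3 at 1576 and 1046 CPM (−0.59), and the inhibitory gene Smad7 at 325 and 209 CPM (−0.64). With cells of up to 20% hormone transcripts included, Id3 (−0.57) and Smad7 (−0.58) fell just short of 1.5-fold. Id1 was detected in 514 of 577 WT and 341 of 437 GKO cells. Smad6, an inhibitor that BMP also induces, was instead at 68.0 and 87.8 CPM (0.37). The receptor genes lay on the other side or near 0, with Acvrl1 at 396 and 457 CPM (0.21), Bmpr2 at 669 and 725 CPM (0.12) and Eng at 1217 and 1219 CPM (0.00). Per thinned cell, the median of the list was 29 UMIs in WT and 23 in GKO, and that of the Notch list 9 and 7.

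The VEGF and sprouting list had a median of 0.00 over 27 genes. By 1.5-fold 3 were higher and 1 lower, beside 2.11% and 2.26% of all genes. The counting interval lay above 0 for 9 genes and below 0 for 6. Nrp1, a VEGF co-receptor, was at 3805 and 3912 CPM (log2 0.04). Apln, a peptide of tip cells, was at 48.1 CPM in WT and 30.1 CPM in GKO (−0.68, and −0.40 without cells with a UMI of another lineage), whereas its receptor gene Aplnr was at 42.0 and 76.2 CPM (0.86, and 0.52 within the largest group of cells, which it led). The guidance gene Sema3c (11.8 and 22.2 CPM, 0.92) and the lymphangiogenic ligand gene Vegfc (32.1 and 49.5 CPM, 0.63) were higher, although Vegfc was at −0.09 within the largest group of cells. Rgcc, a cell cycle regulator that is among the most abundant transcripts here, was at 3996 and 3027 CPM (−0.40).

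Among ligands that endothelial cells send to their surroundings, 2 of 16 were higher by 1.5-fold, beside 2.11% of all genes. Ntf3, which encodes neurotrophin-3, a growth factor of sympathetic and sensory axons, was at 23.1 CPM in WT and 57.7 CPM in GKO (log2 1.32, interval 0.98 to 1.66) and was detected in 95 of 577 and 147 of 437 cells. Csf1, the growth factor of macrophages, was at 16.8 and 37.4 CPM (1.15, interval 0.74 to 1.56). Cxcl12 (127 and 179 CPM, 0.50) and Gas6 (339 and 438 CPM, 0.37) were also higher, below 1.5-fold. Thbs1, an inhibitor of angiogenesis, was at 589 and 455 CPM (−0.37), and Edn1, the vasoconstrictor endothelin-1, at 32.9 and 21.9 CPM (−0.58). Hgf, Wnt2 and Wnt9b, known as angiocrine factors of the liver, had no more than 1 UMI in either library.

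Of 15 basement membrane genes none passed 1.5-fold, and their median of −0.10 lay within the quartiles of all genes; 13 were below 0, 6 of them with the whole counting interval. The type IV collagen chains Col4a1 (2058 and 1837 CPM, log2 −0.16) and Col4a2 (1355 and 1138 CPM, −0.25), the perlecan gene Hspg2 (1056 and 880.5 CPM, −0.26) and the nidogen gene Nid2 (213 and 168 CPM, −0.35) were below 0, while Sparc, the most abundant, was at 3698 and 3628 CPM (−0.03). Junction and caveola genes had a median of 0.16, led by the caveolar gene Sdpr (573 and 803 CPM, 0.49), with none past 1.5-fold. Of the genes of vascular tone, Ace, which converts angiotensin, was at 360 CPM in WT and 244 CPM in GKO (−0.56), and Nos3, the endothelial nitric oxide synthase, at 60.7 and 63.0 CPM (0.05).

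Fatty acid and lipid handling had a median log2 ratio of 0.39 over 10 genes, 2 of them higher by 1.5-fold, beside 2.11% of all genes. Tcf15, a transcription factor of endothelial fatty acid uptake, was at 22.7 CPM in WT and 48.7 CPM in GKO (1.10, interval 0.75 to 1.45). The fatty acid transporter gene Cd36 was at 33.9 and 52.6 CPM (0.63), but at −0.21 within the largest group of cells. Apoe (182 and 255 CPM, 0.49) and Fabp5 (199 and 261 CPM, 0.39, and 0.14 within that group) were higher, while Gpihbp1, which anchors lipoprotein lipase to capillaries, was at 1042 and 925 CPM (−0.17) and Fabp4 at 2011 and 2159 CPM (0.10). Of 23 endothelial transcription factors 1 was higher by 1.5-fold, Tcf15, beside 2.11% of all genes. The flow-induced Klf2, the most abundant, was at 1576 and 1776 CPM (0.17).

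Outside the lists, the genes with the largest ratios by the naming rule included Arl6ip5, an endoplasmic reticulum membrane protein, at 49.1 CPM in WT and 121 CPM in GKO (log2 1.30). It was higher in every other class as well, from 0.85 in β cells to 1.19 in macrophages. Nov, a matricellular protein, was at 26.4 and 64.4 CPM (1.29) with UMIs in 65 and 54 cells, and it was a leading gene of the 25 artery-like cells (759 CPM against 19.9 CPM elsewhere). Also higher were Tgfb2 at 49.3 and 105 CPM (1.09) and the atypical chemokine receptor gene Ccrl2 at 41.8 and 81.9 CPM (0.97). On the other side, the phosphatase gene Dusp2 was at 81.4 and 43.6 CPM (−0.90), the splicing gene Snrpg at 109.8 and 59.6 CPM (−0.88) and Rin3, a Rab5 exchange factor gene, at 59.9 and 33.5 CPM (−0.84).

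Clustering divided the 1014 cells into 8 groups. The 4 large ones held 266, 263, 226 and 149 cells and were separated by few genes: the first by Aplnr, Fmo2 and Fabp4, the second by Ttr, Hapln1, Car4 and Esm1, the third by stress and immediate early genes such as Arc, Egr1 and Atf3, and the smallest of them by Gja4, Tgfb2 and Stmn2. Ttr, an endocrine transcript, was at 464 CPM in the second group and 91.8 CPM elsewhere. The first group, which Fabp5 also led, held 116 of 577 WT cells (20.1%, interval 16.9 to 23.6) and 150 of 437 GKO cells (34.3%, 29.9 to 39.0). Its leading gene Aplnr itself differed between genotypes, so no difference in cell type is read from these shares. They move with the summed levels of Aplnr, Fabp5, Cd36 and Hes1, whose ratios within the group are given above. Hes1 was also lower in GKO in the large groups of 263, 226 and 149 cells, with log2 ratios of −0.82, −0.47 and −1.54. Each of these ratios had a counting interval below 0. Esm1 was at 5875 CPM in the second group and 1227 CPM in the first. A group of 30 cells (18 WT, 12 GKO) had the highest level of 7 of 9 venous markers, among them Selp and Vwf, and is called vein-like. A group of 25 cells (14 and 11) had the highest level of 8 of 12 arterial markers and is called artery-like. A group of 44 cells was led by pericyte genes such as Pdgfrb and Notch3, with all 9 mural markers highest and a median of 15441 UMIs, and a group of 11 cells was led by immune genes such as Cd52 and Laptm5. These cells carried endothelial transcripts together with those of another lineage and remained in the sums above.

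Because genes that differ between genotypes can set such groups, the shares of each library were compared in a second clustering, without the genes past 1.5-fold and without the lists compared. It gave 7 groups. The first 3 held 32.8%, 23.7% and 16.3% of WT cells and 30.0%, 22.2% and 13.7% of GKO cells. Group 4, low in Esm1 (360 CPM) and led by Aqp1, Lrg1 and Fbln2, held 10.2% of WT cells (interval 7.88 to 12.99) and 17.4% of GKO cells (13.95 to 21.3). In each of the 5 groups with at least 50 cells per library, the class I sum was higher in GKO, with log2 ratios from 0.37 to 0.49, and so was the interferon response sum, from 0.23 to 0.39. Class II ranged from 1.05 to 2.17. Zbtb16 was lower in all 5, from −4.53 to −1.75, as were Fkbp5, from −1.37 to −0.86, Id3, from −0.88 to −0.35, and Hes1, from −0.73 to −0.31, with a counting interval below 0 in 4 of the 5.

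**Figure D4:**
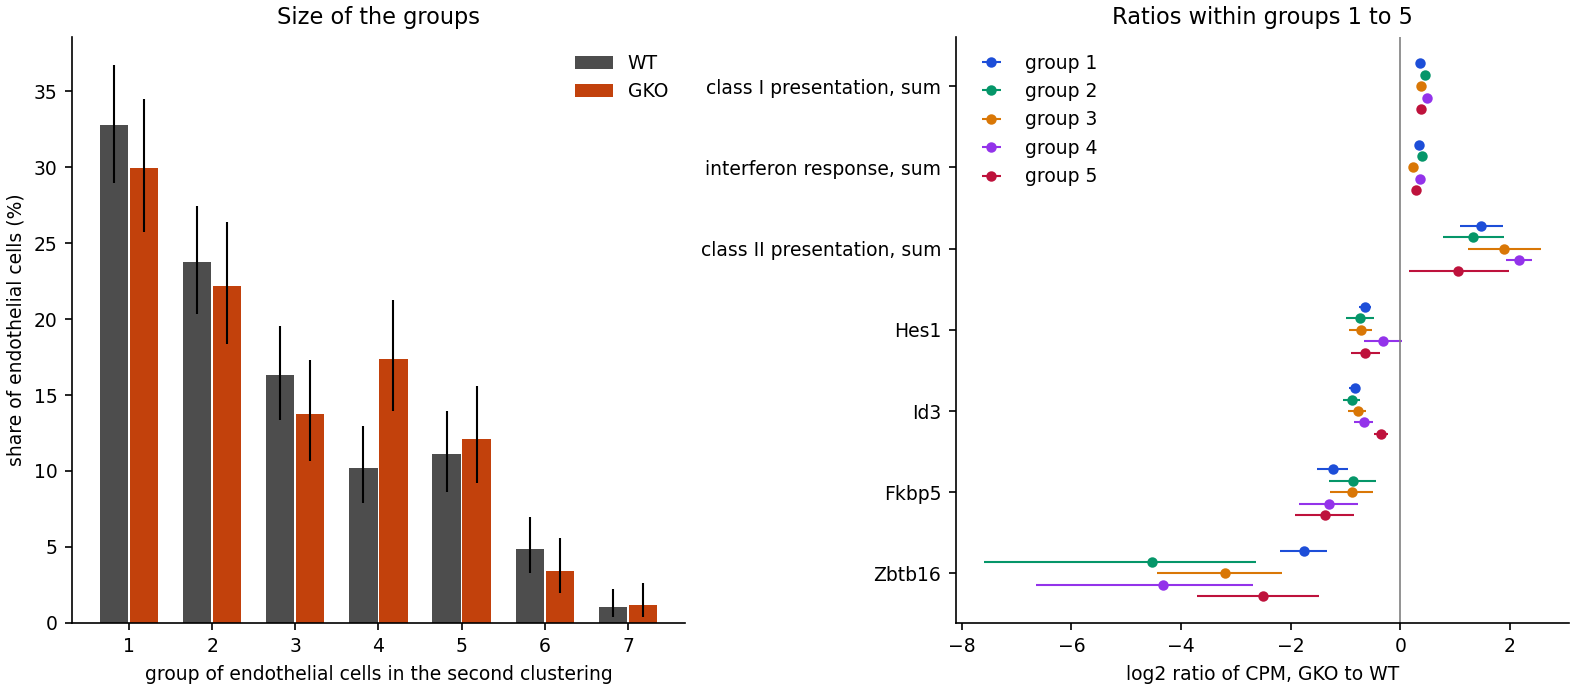
Left, share of endothelial cells (%) of WT (grey) and GKO (orange) in the 7 groups of the second clustering, with exact 95% Clopper-Pearson intervals. Right, log2 ratio of GKO to WT CPM within the 5 groups with at least 50 cells per library, with Poisson intervals; class I and interferon response sums lie above 0 and Hes1, Id3, Fkbp5 and Zbtb16 below 0 in each.

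The same lists were set beside the other cells of the islet. For the 65 class I and interferon response genes with at least 100 UMIs in endothelial cells, the median log2 ratio there was 0.54. It was 0.23 over the 55 of them measured in stellate or fibroblast cells, 0.12 over 57 in macrophages and 0.08 over 52 in β cells, where the medians of all genes were 0.10, 0.10 and 0.05. It was 0.19 over 46 in δ cells and 0.10 over 46 in α cells, beside 0.03 and 0.05 for all genes. The number at least 1.5-fold higher was 27 of 65 in endothelial cells, 12 of 55 in stellate or fibroblast cells (beside 6.98% of all genes), 4 of 57 in macrophages (7.03%), 1 of 52 in β cells (1.74%), 1 of 46 in α cells (1.67%) and 2 of 46 in δ cells (1.52%). The number at least 1.5-fold lower was 0 in endothelial and in stellate or fibroblast cells (3.66% of all genes in the latter), 8 in macrophages (3.51%), 3 in β cells (2.36%), 0 in α cells (1.87%) and 1 in δ cells (1.77%). In β cells the log2 ratios of the class I and interferon response sums were 0.14 and 0.03. They were 0.03 and 0.01 in α cells and 0.05 and 0.14 in δ cells. In stellate or fibroblast cells the sums of the 2 lists stood further apart. The interferon response list summed to 4960 and 6270 CPM in stellate or fibroblast cells (log2 0.34, against 0.37 in endothelial cells), with 12 at least 1.5-fold higher and 2 lower of the 36 members with at least 100 UMIs there. The lower ones, the chemokine genes Cxcl9 and Cxcl10, had fewer than 100 UMIs in endothelial cells and are not among the 65. The class I list summed to 6249 and 6680 CPM there (0.10, against 0.41). H2-K1, of the class I list, was at 1629 and 2274 CPM in endothelial cells, 1137 and 1164 CPM in stellate or fibroblast cells, 1904 and 1860 CPM in macrophages, and 209.9 and 208 CPM in β cells. Rsad2 was higher in GKO endothelial cells (244 and 440 CPM) and lower in GKO macrophages (196 and 127 CPM). Gbp2 had a log2 ratio of 1.05 in both endothelial cells and macrophages. Each class comes from the same 2 libraries, so these differences between classes were not tested.

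**Figure D5:**
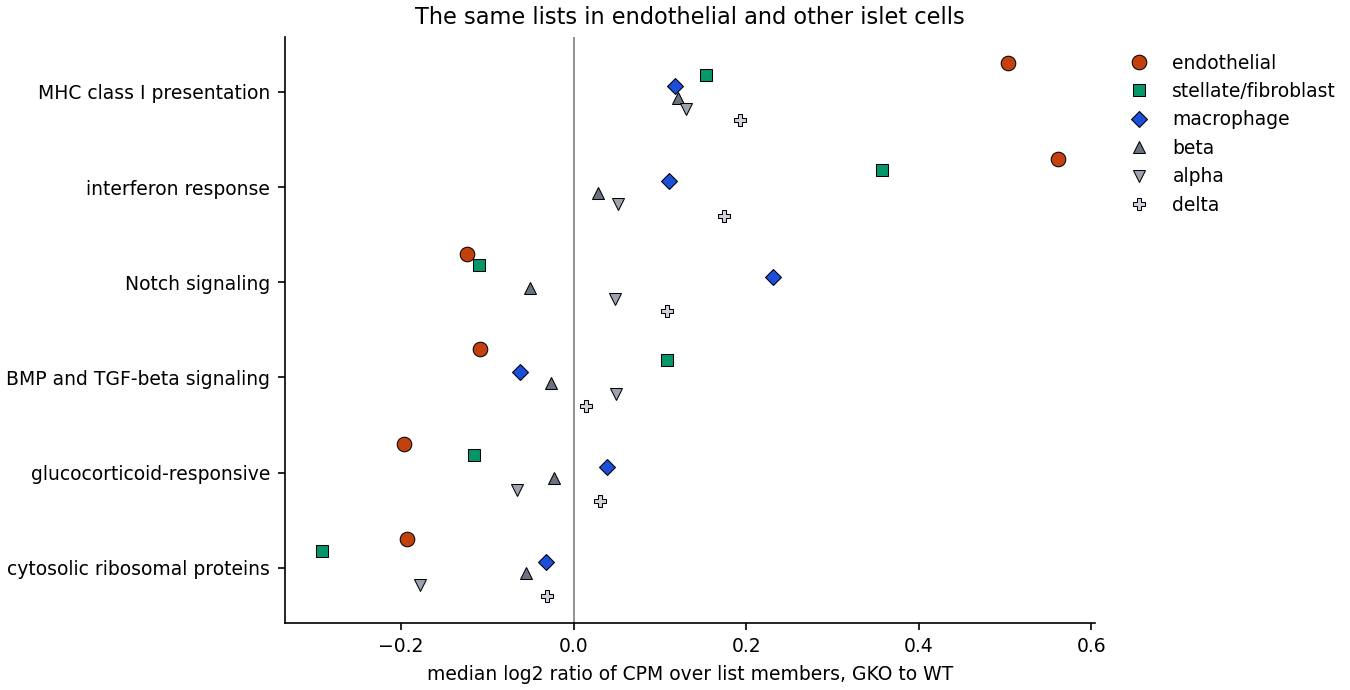
Median log2 ratio of GKO to WT CPM over the members of 6 gene lists with at least 100 UMIs, in endothelial cells (large circles) and 5 other islet cell classes. Endothelial cells have the highest medians for class I presentation (0.50) and the interferon response (0.56), with stellate or fibroblast cells next for the latter (0.36).

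Transcripts of other cells and of RNA quality moved with genotype and are given beside these results. The islet hormones summed to 8556 CPM in WT and 7026 CPM in GKO endothelial cells (log2 −0.28), although Gcg was higher (634 and 866 CPM, 0.45) and Sst lower (574 and 179 CPM, −1.68, and −0.56 without cells with a UMI of another lineage). From these sums free RNA was estimated at 1.74% of the UMIs in WT and 1.89% in GKO. All 12 acinar genes were lower in GKO, with a median of −2.02 and Ctrb1 as the most abundant (518 and 116 CPM), but 1811 of its 2553 WT UMIs came from 1 cell, and without the top cell of each library the median was −0.46. Erythroid genes were higher in GKO (198 and 708 CPM), with all 723 WT and 1757 of 1758 GKO Hbb-bs UMIs from 1 cell each. Mural genes summed to 484 and 420.3 CPM, most of it Rgs5, which had at least 10 UMIs in 33 WT and 21 GKO cells. Macrophage genes summed to 91.9 and 54.9 CPM. Of 8 cell cycle genes 4 were lower in GKO, among them Mki67 (18.5 and 2.81 CPM) and Top2a (19.5 and 6.75 CPM, short of 1.5-fold in thinned cells), and 7 WT cells and 1 GKO cell had at least 5 UMIs of either. The cell cycle list was at 941 CPM in the group of 44 cells led by pericyte genes, against 152 CPM elsewhere. Mki67 and Top2a were at 109 and 138 CPM in that group, and at no more than 1.70 and 2.41 CPM in the 4 large groups. Ribosomal protein genes were lower, with a median of −0.19 over 79 genes. Beside 2.26% of all genes, 13 of the 79 were lower by 1.5-fold, among them Rps21 (−0.83) and Rps29 (−0.77). Of the genes that dissociation can induce, heat shock genes had a median of 0.15, with Hspa1a at 4763 and 6229 CPM (0.39), and immediate early genes a median of −0.09, with Nr4a1 at 413 and 295 CPM (−0.49). Without the mural and immune groups of cells, the median was 0.52 for class I presentation and 0.53 for the interferon response. The part of the other markers in the results above was not tested.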

How the data were processed

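Islet cells of 1 WT and 1 GKO pool were profiled by droplet 3′ RNA-Seq. The authors aligned reads to mm10 with Cell Ranger (5.0.1 in the matrix headers) and deposited UMI counts per gene and barcode, without normalization. Barcodes were classified by the transcript shares given above, β cells by at least 25% insulin UMIs and α and δ cells by at least 10% of their hormone. No doublets were removed. Removing the 7.6% of barcodes with the highest Scrublet score was an alternative. Counts were summed per library and class and scaled to CPM. Genes with at least 100 UMIs in both sums together were compared. Ratios were given exact conditional binomial intervals, which cover counting error only.

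The genes named were the 7 used to choose the cells, in each list the 2 most abundant and up to 4 with the largest ratio, any member of a list described in full, and the 12 genes furthest each way with at least 50 CPM in 1 library and 20 UMIs in each, leaving out listed markers of other cell types (acinar, erythroid and hormone genes among them). The cells and gene lists were chosen with earlier results of these data known. Clusters came from scanpy 1.11.5 and leidenalg 0.10.2 on 1000 variable genes, 15 components and 15 neighbors at resolution 0.5, without hormone, acinar, ribosomal and mitochondrial genes. Python 3.11.15, numpy 2.4.6, scipy 1.17.1 and pandas 2.3.3 were used, and edgeR 4.0.16 in R 4.3.3 gave TMM factors as an alternative scaling. The calculations were tested on simulated data. Alternatives changed the filters, the scaling, the weight of cells, the depth, free RNA, the minimum count and the fold. Symbols shared by several features were left out. Some items are not reported here.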

Additional observations from a re-analysis of the deposited data

How the results depend on the processing

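No paired analysis was possible because each genotype had 1 library. Under 15 alternatives and 3 added after the data were seen, the list medians ranged from 0.40 to 0.54 for MHC class I presentation, from 0.38 to 0.57 for the interferon response, from −0.25 to −0.05 for glucocorticoid-responsive genes and from −0.25 to −0.19 for ribosomal proteins, the last at −0.25 within the largest group of cells (added). Of 94 genes of the lists and extremes past 1.5-fold, 49 stayed past it under every alternative that was not added later.

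Genes at least 1.5-fold higher numbered 308 with at least 50 UMIs per gene, 28 with at least 500 and 22 at 2-fold, against 165; lower genes numbered 308, 52 and 44, and 108 in thinned cells, against 177. Counts within lists were followed after the data were seen. Class I genes at least 1.5-fold higher numbered 5, against 8, with TMM factors or without ribosomal and mitochondrial genes in the total. At 2-fold they numbered 0. Interferon response genes numbered 7 with at least 500 UMIs and 5 at 2-fold, against 19. Lower glucocorticoid-responsive genes numbered 1 within the largest group, against 3. Zbtb16 left that count by the limit of 100 UMIs, with 88 and 7 UMIs there (log2 −3.94, interval −5.29 to −2.84). Lower Notch genes numbered 0 within the largest group and 0 at 2-fold, against 2. Hey1 was also under the limit in that group, with 15 and 10 UMIs (−0.87, interval −2.19 to 0.38). Lower BMP genes numbered 1 with hormones below 20% and 0 at 2-fold, against 3. The class II median of −0.02 moved to 1.03 with hormones below 5%, 2.23 without the highest Scrublet scores, 2.10 without cells with a UMI of another lineage, 1.10 for the mean of the cells' own CPM, 1.13 in thinned cells and −0.15 with free RNA subtracted, and, in the added alternatives, to 0.62 without the top cell of each gene, 2.17 without the mural and immune groups and 1.41 within the largest group. The endothelial share was 8.84% in WT and 7.73% in GKO with at most 5% mitochondrial UMIs, and 7.21% and 6.05% without cells with a UMI of another lineage. The share of WT cells with a Cd74 UMI was 10.7% in thinned cells.

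Of 5765 gene values, 11 changed sign: Acta2 (−1.17, Scrublet), Cd36 (−0.21) and Vegfc (−0.094) within the largest group, Cdk1 (0.52) without the mural and immune groups, Pnliprp1 without other lineages (0.13) and without top cells (0.30), Scg2 in thinned cells (0.063), and Ttr with hormones below 5% (0.036), without other lineages (0.73), without top cells (0.013) and within the largest group (0.18). Apart from the fewer or more genes, cells and UMIs that each alternative keeps, the cause was not tested. Clustering gave 12 groups at resolution 1.0, and 7 with more variable genes or without the genes that differed, against 8. Single genes near 100 UMIs have wide intervals, and no depth replaces a second pool.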

Other observations

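Genes of leukocyte recruitment and clotting were mostly close between genotypes. Of 10 adhesion genes that passed 100 UMIs, 1 was at least 1.5-fold lower in GKO endothelial cells and the median log2 ratio was 0.16, beside 2.26% of all genes lower and a median of 0.04. That gene was Selp, the P-selectin of veins, with 87 UMIs in WT and 16 in GKO, and 52 of the 87 came from 1 cell. Podxl, a sialomucin of the luminal surface, was at 776 CPM in WT and 988 CPM in GKO (0.35), and Jam3, a junctional adhesion molecule gene, at 239 and 314 CPM (0.40). Icam1, which leukocyte integrins bind, was at 41.0 and 33.5 CPM (−0.29). Of the 11 clotting genes, Vwf, the von Willebrand factor, was at 26.6 and 14.3 CPM (−0.89) with UMIs in only 22 WT and 13 GKO cells, most of it in the vein-like group (691 CPM against 1.58 CPM elsewhere), and at −0.50, short of 1.5-fold, by the mean of the cells' own CPM. Thbd, the anticoagulant thrombomodulin, was at 354 and 441 CPM (0.32).

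None of 8 hormone receptor genes passed 1.5-fold, and their median was −0.10. The insulin receptor gene Insr was at 214 CPM in WT and 196 CPM in GKO (−0.13), the leptin receptor gene Lepr at 31.3 and 37.4 CPM (0.26) and Igf1r at 58.9 and 50.6 CPM (−0.22). Glp1r, the receptor of the incretin GLP-1, had no UMI in the endothelial cells of either library.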
